A study of Mus musculus with 9 samples.

Results

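The Nr4a genes Nr4a1 (Nur77), Nr4a2 (Nurr1) and Nr4a3 (Nor1) encode the orphan nuclear receptors of the NR4A subfamily. Their rows were taken by symbol, and all 3 genes were found in both deposited tables, each of which lists 24015 rows. RNA had been measured by sequencing in the dentate gyrus, the entry station of the hippocampus, microdissected from individual wild-type C57BL/6 mice aged 8 weeks. The groups are E0, E1 and E4 with 3 mice each, and the series asks how neuronal activation alters RNA and chromatin accessibility in the adult brain. The labels give the number after E no unit and do not name the stimulus. As background from the study, E0 is before, E1 is 1 h after and E4 is 4 h after electroconvulsive stimulation, which makes granule neurons fire in synchrony. The values are statistics per group, with no value per mouse, so no spread over mice can be shown and each value carries the authors' standard error (SE).

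NR4A receptors differ from most nuclear receptors in that no circulating hormone is needed to switch them on. Their activity is set largely by how much of the protein is made, and in neurons calcium and cAMP signals drive their transcription within minutes through CREB and its coactivators. Each member binds a short DNA element named NBRE as a monomer, and Nr4a1 and Nr4a2 can also pair with retinoid X receptors. In the hippocampus these factors are known from work on memory storage in mice, and Nr4a2 is also required for midbrain dopamine neurons to form.

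The promoter windows of the members are shown because a motif recurs in all 3 of them. Each is the RefSeq window on build GRCm38.p6, from 250 bases before the annotated transcription start to 50 bases after it, in the direction of the gene. Capitals mark the CRE core TGACG, or CGTCA where it lies on the other strand, which is the core of the cAMP response element that CREB binds.
Nr4a1 (chr15:101266596-101266895, plus strand): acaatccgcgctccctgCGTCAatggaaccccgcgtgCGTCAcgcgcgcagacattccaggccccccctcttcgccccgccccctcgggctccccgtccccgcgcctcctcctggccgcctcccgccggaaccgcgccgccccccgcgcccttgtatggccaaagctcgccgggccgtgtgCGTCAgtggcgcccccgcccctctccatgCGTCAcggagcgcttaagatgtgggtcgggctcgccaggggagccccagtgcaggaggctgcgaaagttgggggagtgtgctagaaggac
Nr4a2 (chr2:57123954-57124253, minus strand): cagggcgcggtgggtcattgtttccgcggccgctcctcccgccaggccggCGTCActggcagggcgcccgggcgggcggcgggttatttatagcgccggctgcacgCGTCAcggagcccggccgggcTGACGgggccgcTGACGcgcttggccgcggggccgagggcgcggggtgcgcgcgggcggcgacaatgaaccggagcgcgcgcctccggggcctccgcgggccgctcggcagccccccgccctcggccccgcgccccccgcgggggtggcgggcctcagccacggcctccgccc
Nr4a3 (chr4:48045055-48045354, plus strand): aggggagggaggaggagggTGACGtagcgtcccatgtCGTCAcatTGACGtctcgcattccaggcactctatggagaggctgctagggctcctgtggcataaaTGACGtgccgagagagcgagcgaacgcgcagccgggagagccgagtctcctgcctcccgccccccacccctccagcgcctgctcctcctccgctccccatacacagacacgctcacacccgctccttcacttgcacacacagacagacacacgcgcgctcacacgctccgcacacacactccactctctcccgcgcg

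All 3 members had an entry, and each window held 4 CRE cores. Of 32851 windows of the same length in the RefSeq table, 20.8% held at least 1 core and 0.231% held 4 or more (76 windows). The cores began at -233, -213, -69 and -40 in Nr4a1, counting bases from the transcription start. In Nr4a2 they began at -200, -144, -123 and -111, and in Nr4a3 at -231, -213, -205 and -147. None of the cores overlapped another, and the full element TGACGTCA, present in 1.79% of all windows, occurred in no member. The windows were rich in G and C, at 72.3% in Nr4a1, 81.7% in Nr4a2 and 64.7% in Nr4a3, against a median of 52.7% over all windows. The Nr4a2 window also held 1 match to the MEF2 site (3.19% of windows), which overlapped 1 TATAAA box (13.6% of windows). That box lies on the other strand and reads TTTATA in the direction of the gene. No member window held the NBRE AAAGGTCA (1.51% of windows), the AP-1 site TGANTCA (7.81%), the serum response element (1.63%) or the Egr site GCGTGGGCG (0.612%), each searched on both strands. A match is only a run of letters within these windows.

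Other genes were counted by the cores in their window, for symbols with 1 window and with the members left out. Of 45 genes with 4 or more cores that were tested in E1, 18 were raised (40.0%) and 1 was lowered, against 1226 raised (19.1%) and 989 lowered of 6424 genes with none. In the comparison for E4, 18 of 45 (40.0%) were raised and 3 lowered, against 1094 raised (18.7%) and 1087 lowered of 5860 genes with none. Median GC content of the window was 65.3% in genes with 4 or more cores and 60.3% in genes with none in the comparison for E1. Their median mean count was 219 with 4 or more cores and 85.1 with none. The part of GC content and of read depth in these shares was not tested. Of 21 other immediate early genes, which are switched on without new protein synthesis, 15 had a window. In 11 of these the window with most cores held 1 to 3, in 4 none, and in 0 of them 4 or more.

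**Figure D1:**
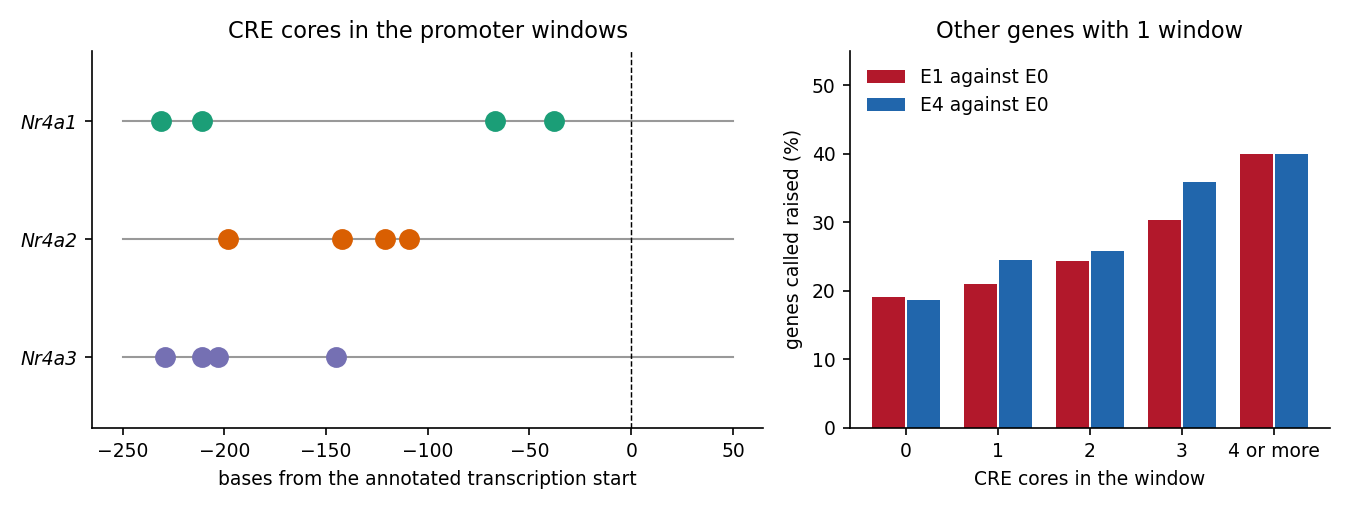
Left, positions of the CRE core in the promoter windows of Nr4a1, Nr4a2 and Nr4a3 (x axis, bases from the annotated transcription start, points at the middle of each core, 4 per gene). Right, percent of other tested genes called raised at adjusted p below 0.05 (y axis) by number of cores in their single window (x axis), for E1 against E0 and E4 against E0, with 40.0% in both comparisons at 4 or more cores.

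The libraries differed in depth, as approximated from the steps that single reads leave in genes that are hardly read. In E0 the libraries held about 6140000 to 10960000 reads in genes, in E1 1940000 to 4760000 and in E4 10020000 to 13550000. The granule neuron markers Prox1 and Calb1 were well read, at 991 and 1620 normalised counts on average, per the authors' deposited table for E1. Of 647 genes raised in E1 by at least 2 log2 units, 184 had a mean count below 1 in the table for E4. The reverse count, for genes raised in E4, was not made. All 3 members were read in both tables. In bulk tissue a change in the number of expressing cells and a change in RNA per cell cannot be told apart.

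The first question is how the Nr4a transcripts stood at the early time, E1, relative to E0. All 3 Nr4a genes rose, between 24.7-fold and 60.3-fold. As background, an adjusted p below 0.05, the threshold for a call here, was reached by 35.5% of 15660 genes in this comparison, and 20.6% were called raised. Nr4a2 rose most, Nr4a3 and Nr4a1 by less, and in E1 Nr4a2 was the most abundant member by count and per length of transcript.

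Nr4a2 stood at a mean normalised count of 2003 over both groups and a log2 fold change of 5.92 ± 0.15 (SE), per the authors' deposited table for E1 (adjusted p from DESeq2 listed as 0). Split by that fold, the level was about 3941 in E1 and 65.3 in E0, on the scale of the table for E1. About 7760 reads in the 3 E1 libraries together and 334 reads in the 3 E0 libraries lie behind these levels. Nr4a2 ranked 28th from the top of 15638 genes by log2 fold change.

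Nr4a3 had a mean normalised count of 968 and a log2 fold change of 4.86 ± 0.15, per the authors' deposited table for E1 (DESeq2 adjusted p = 6.74e-229). Its level was about 1872 in E1 and 64.4 in E0, from about 3686 reads in E1 and 329 in E0. It was 29.1-fold higher in E1, had a level in E0 close to that of Nr4a2, and ranked 92nd.

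Nr4a1 had a mean normalised count of 718 and a log2 fold change of 4.63 ± 0.16, per the authors' deposited table for E1 (DESeq2 adjusted p = 4.64e-180). Its level was about 1380 in E1 and 55.8 in E0, from about 2717 reads in E1 and 285 in E0. It was 24.7-fold higher in E1 and the least raised of the members, at rank 117.

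Per kilobase of the longest protein-coding transcript in GENCODE M21 (2553 bases for Nr4a1, 3568 for Nr4a2 and 5720 for Nr4a3), the level in E1 was 1104 for Nr4a2, 540 for Nr4a1 and 327 for Nr4a3. In E0 the level per kilobase was 18.3 for Nr4a2, 21.9 for Nr4a1 and 11.3 for Nr4a3, in the same table. Nr4a1 thus stood first in E0 and Nr4a2 in E1, while Nr4a3 was lowest per length in both. The tables give no error for a level in 1 group, so whether neighbours in these orders differ beyond the spread was not tested.

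**Figure D2:**
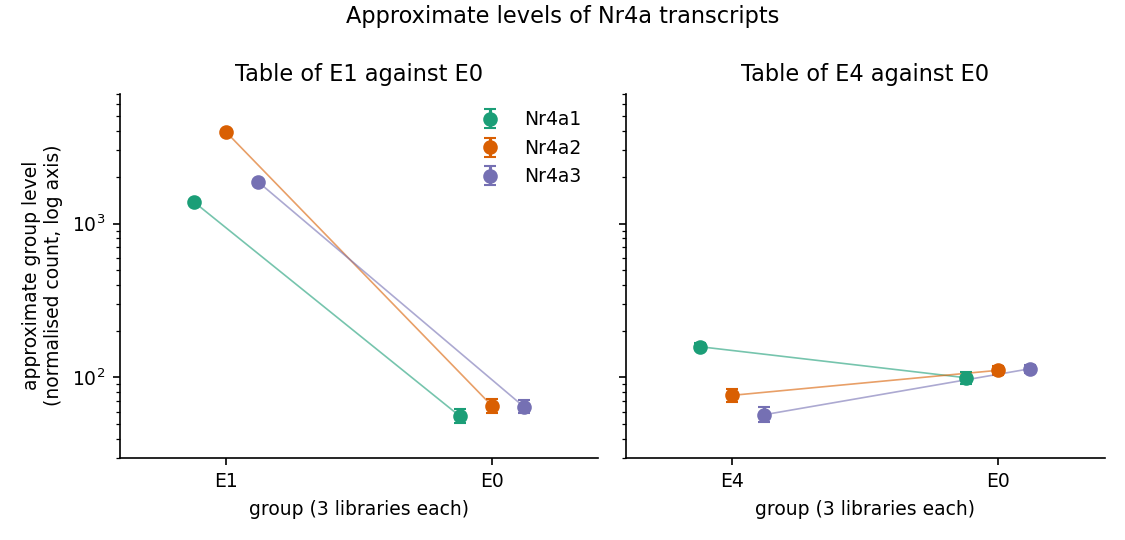
Approximate level of each Nr4a transcript (y axis, normalised count, log axis) in E1 and E0 from the first table and in E4 and E0 from the second (x axis, 3 libraries per group). Points split the deposited mean count by the deposited fold, bars show the fold plus or minus 1 SE, and the scales of the 2 panels differ. Levels in E1 lie between 1380 and 3941, and those in E4 between 57.2 and 158.

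At the later time, E4, the same genes were compared with E0 again. The members no longer moved together, since Nr4a1 was above E0 and Nr4a3 and Nr4a2 were below it. All 3 were called, 1 raised and 2 lowered, in a comparison where 39.0% of 14455 genes tested were called, 20.7% raised and 18.3% lowered.

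Nr4a1 stood at a log2 fold change of 0.67 ± 0.20 in the authors' deposited table for E4, a 1.59-fold rise (DESeq2 adjusted p = 0.00316). Its level was about 158 in E4 and 99.4 in E0, on the scale of the table for E4, from about 552 reads in E4 and 269 in E0.

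Nr4a3 stood at -0.99 ± 0.24 on the log2 scale in the authors' deposited table for E4, so it was 1.99-fold lower than in E0 (DESeq2 adjusted p = 0.000248). Its level was about 57.2 in E4 and 114 in E0, from about 200 reads in E4 and 308 in E0. It ranked 464th from the bottom of 14433 genes.

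Nr4a2 stood at -0.54 ± 0.23 in the authors' deposited table for E4, 1.45-fold lower than in E0 (DESeq2 adjusted p = 0.0444). Its level was about 76.4 in E4 and 111 in E0, from about 267 reads in E4 and 301 in E0. This call lay close to the threshold and was lost when p was adjusted over all genes without a filter on low counts (adjusted p = 0.0561, and 0.0355 to 0.0561 over the alternatives).

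Between E4 and E1 both deposited log2 fold changes of a gene were subtracted and tested, over 12769 genes whose mean count reached 10 in each table. All 3 members were lower in E4, as were 19.0% of the genes tested, while 36.7% differed in either direction. Nr4a2 differed by -6.46 ± 0.27 on the log2 scale, an 87.8-fold lower value and the largest fall of all genes in this test (adjusted p = 3.74e-121, two-sided normal test with Benjamini-Hochberg adjustment). Nr4a3 differed by -5.85 ± 0.29, the fall of rank 4 and 57.9-fold (adjusted p = 2.68e-89 in the same test). Nr4a1 differed by -3.96 ± 0.26, at rank 25 and 15.5-fold (adjusted p = 7.84e-51 in the same test). Both comparisons share the E0 mice, whose error enters each, so these errors are approximate. The ranks of the falls cover only genes that reached the mean count of 10 in each comparison. Left out were 184 of the 647 genes raised in E1 by at least 2 log2 units, with a mean count below 1 in the comparison for E4.

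Differences between members were tested in 6 pairs, 3 per comparison, with p adjusted over the 6. In E1, the log2 fold change of Nr4a1 was below that of Nr4a2 by a difference of -1.29 ± 0.22 (adjusted p = 2.42e-08, two-sided normal test). The log2 fold change of Nr4a2 was above that of Nr4a3 by 1.05 ± 0.21 (adjusted p = 1.18e-06). No difference passed the test between Nr4a1 and Nr4a3 in E1, at -0.23 with a 95% interval of -0.66 to 0.20. In E4, Nr4a1 was above Nr4a2 by 1.21 ± 0.30 (adjusted p = 9.26e-05) and above Nr4a3 by 1.66 ± 0.32 (adjusted p = 4.12e-07). The difference between Nr4a2 and Nr4a3 in E4 did not pass the test, at 0.45 with a 95% interval of -0.20 to 1.11. The test treats the members as independent although they were read in the same libraries.

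Set beside 21 other immediate early genes, the Nr4a genes shared the early rise. Of 20 such genes tested in E1, 19 were raised, 0 lowered and 1 not called. Over all 15660 genes tested there, 20.6% were raised and 2342 genes lowered. The median log2 fold change of the 20 in E1 was 3.15, against 0.02 over all genes tested. Fosb, an AP-1 subunit, stood at 6.92 ± 0.16 and Arc, an organiser of synaptic plasticity, at 6.65 ± 0.14, both from the authors' deposited table. Fos, also an AP-1 subunit, stood at 4.64 ± 0.21, the zinc finger factor gene Egr1 at 3.72 ± 0.16 and the calcium-induced factor gene Npas4 at 2.98 ± 0.32 there (the authors' deposited table for E1). Nr4a2 at 5.92 thus lay between Arc and Fos. In E4, 10 of 20 were raised, 0 lowered and 10 not called, with a median of 0.76 against -0.01 over all genes tested. The shares over all genes were then 20.7% raised and 18.3% lowered. The lowest of the 20 in E4 was Jun at -0.08 ± 0.10 in the authors' deposited table for E4 (DESeq2 adjusted p = 0.550). Klf10, a Krueppel-like factor, stood at 4.05 ± 0.13, Ier5 at 2.44 ± 0.13 and Egr3 at 2.30 ± 0.10 in the authors' deposited table for E4. Nr4a3 and Nr4a2 were called lowered there, Nr4a2 close to the threshold (DESeq2 adjusted p = 0.0444), and none of the 20 was.

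**Figure D3:**
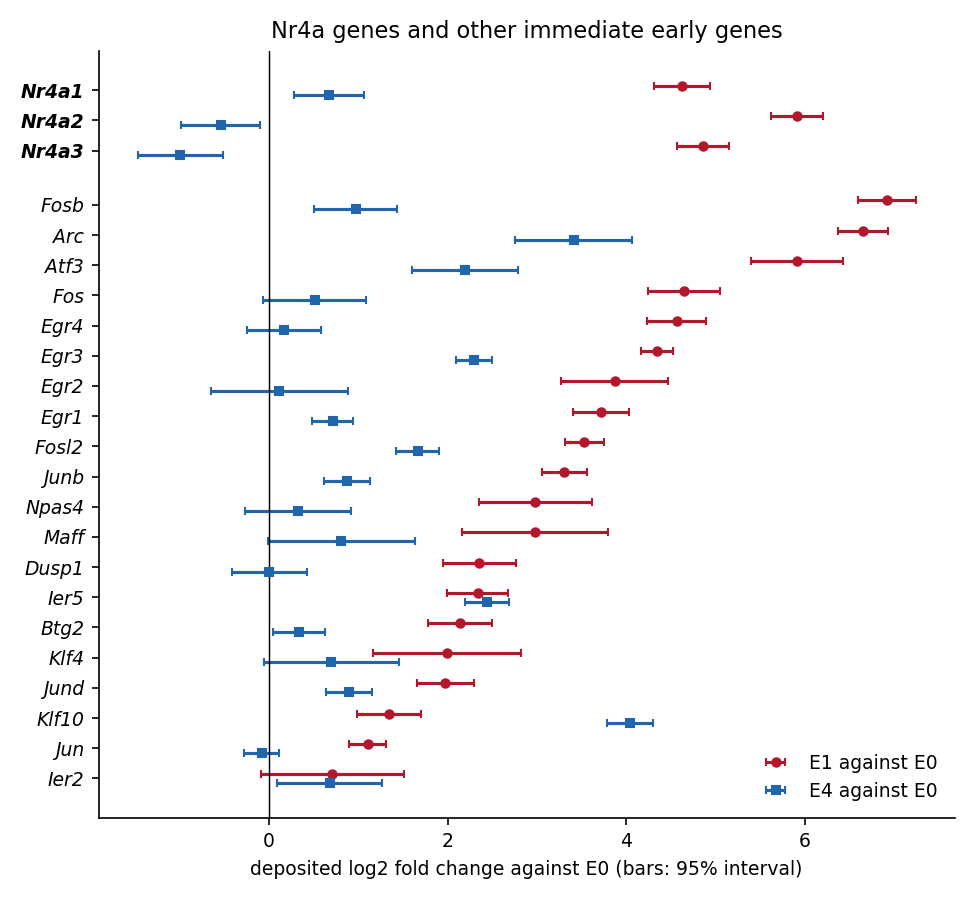
Deposited log2 fold change against E0 (x axis, bars show the 95% interval) for the 3 Nr4a genes, at the top, and 20 other immediate early genes (y axis), with circles for E1 and squares for E4. In E4 the points of Nr4a2 and Nr4a3 lie at -0.54 and -0.99, left of all the other genes shown.

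Among nuclear receptors the Nr4a genes took ranks 1, 3 and 4 of 40 tested in E1. Rank 2 was held by the retinoic acid receptor gene Rara at 4.96 ± 0.24 in the authors' deposited table for E1. Of the other 37 receptors tested, 10 were raised, 3 lowered and 24 not called, with a median log2 fold change of 0.24. Thus 35.1% were called in either direction, near the 35.5% over all genes. By direction, 27.03% were raised, against 20.6% over all genes, and 3 of 37 lowered, against 2342 of all 15660 genes. Raised receptors included the retinoid-related orphan receptors Rorb at 2.31 ± 0.23 and Rora at 1.74 ± 0.19 and the COUP factor gene Nr2f2 at 1.39 ± 0.15 as the authors' deposited table for E1 gives them. The clock repressor gene Nr1d1 at -0.48 ± 0.13, the thyroid hormone receptor gene Thra at -0.22 ± 0.09 and Rxra at -0.44 ± 0.17 were the 3 lowered receptors (the authors' deposited table for E1).

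In E4, Nr4a1 ranked 5th of 37 receptors from the top, Nr4a2 26th and Nr4a3 35th. Of the other 34, 5 were raised, 11 lowered and 18 not called, with a median of -0.19. That is 47.1% called, against 39.0% over all genes. By direction, 14.7% were raised and 32.4% lowered, against 20.7% and 18.3% over all genes. Rara stood at 3.98 ± 0.19, so that it was raised in both comparisons, while the mineralocorticoid receptor gene Nr3c2 at 0.53 ± 0.09, Nr2f6 at 0.83 ± 0.14 and Pparg at 1.96 ± 0.36 rose too (the authors' deposited table for E4). Lowered receptors there included Nr1d1 at -0.73 ± 0.09, its relative Nr1d2 at -0.87 ± 0.12 and Thra at -0.64 ± 0.08 in the authors' deposited table for E4. Rarb was called raised in E1 and lowered in E4, at 2.25 ± 0.26 and -0.70 ± 0.25 in the authors' deposited tables. So was Thrb, at 0.74 ± 0.18 and -0.60 ± 0.16. A rise in E1 with a level below E0 in E4 was thus not particular to Nr4a2 and Nr4a3.

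**Figure D4:**
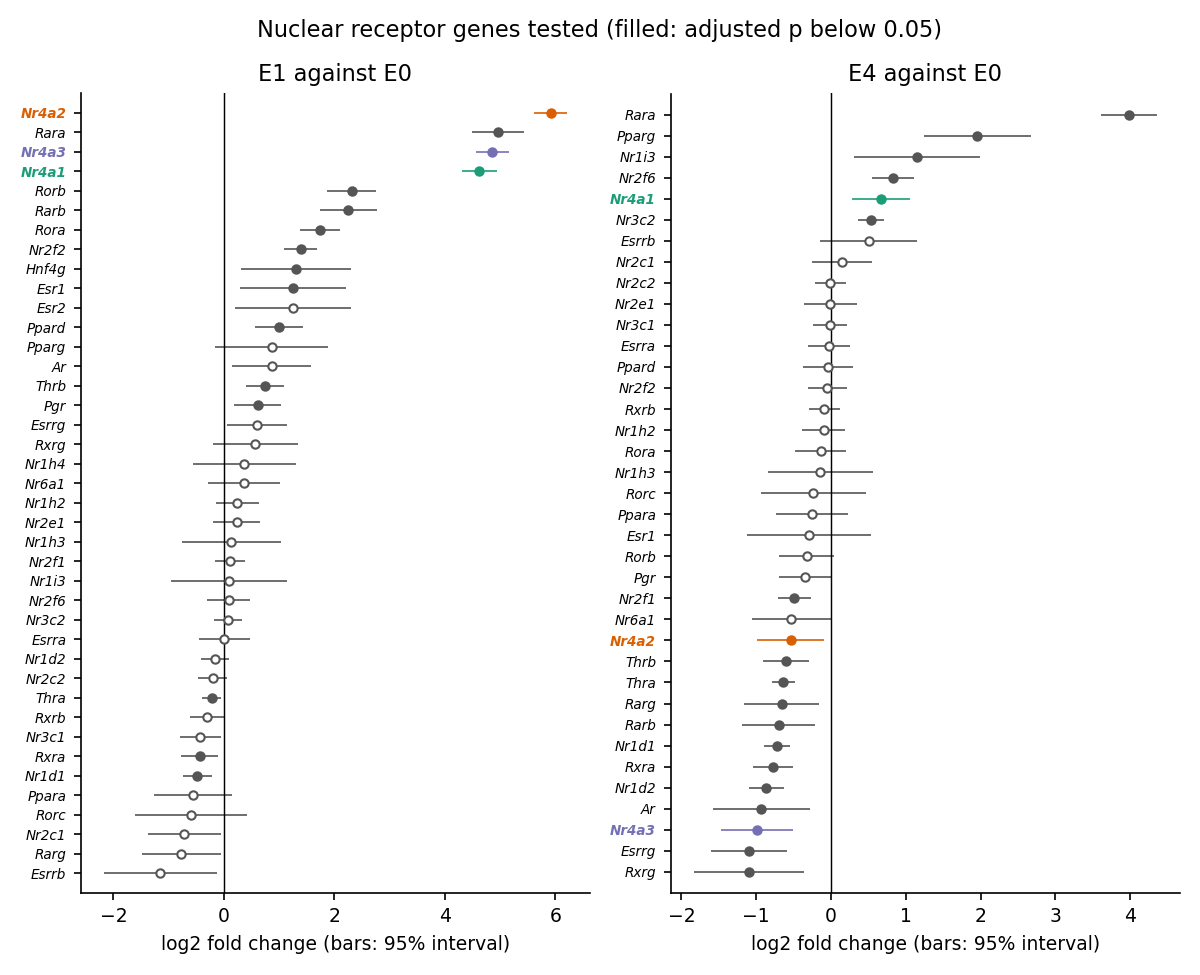
Deposited log2 fold change (x axis, bars show the 95% interval) of every nuclear receptor gene with an adjusted p (y axis, ordered by fold), 40 in E1 against E0 and 37 in E4 against E0. Filled points passed an adjusted p of 0.05, and the Nr4a genes are in colour, at ranks 1, 3 and 4 in the first panel and 5, 26 and 35 in the second.

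None of the 3 dimer partners was called raised. Rxra was lowered in E1, as given above, and stood at -0.78 ± 0.14 in the authors' deposited table for E4 (DESeq2 adjusted p = 1.03e-07). Rxrb stood at -0.30 ± 0.15 in E1 and -0.09 ± 0.11 in E4, called in neither, in the authors' deposited tables. Rxrg, at a mean count of only 20.1, stood at 0.57 ± 0.39 in the authors' deposited table for E1 (not called), and was lowered at -1.10 ± 0.38 in that for E4 (DESeq2 adjusted p = 0.0111). The list of partners, coregulators and binding proteins, Rxr genes included, had 6 raised, 7 lowered and 18 not called of 31 in E1 (35.5% of all genes being called), and 12 raised, 5 lowered and 14 not called in E4 (39.0% of all genes). Medians were -0.01 in E1 and 0.13 in E4. The histone acetyltransferase gene Crebbp, the coactivator of CREB, stood at 0.76 ± 0.14 and Sfpq, a nuclear RNA-binding protein gene, at 1.07 ± 0.11 by the authors' deposited table for E1. The demethylase gene Kdm1a of the CoREST complex stood at 0.71 ± 0.10 and Tle3 at 2.28 ± 0.18 in the authors' deposited table for E4. The deacetylase gene Hdac1 was lowered in both, at -0.74 ± 0.15 in E1 and -0.90 ± 0.11 in E4 in the authors' deposited tables.

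Genes of the upstream route, from calcium and cAMP kinases to CREB, MEF2 and SRF, moved both ways. Of 43 tested, 16 were raised, 10 lowered and 17 not called in E1, and 12 were raised, 13 lowered and 18 not called in E4. The shares called were 60.5% in E1 and 58.1% in E4, against 35.5% and 39.0% over all genes tested. Creb1 was raised in both comparisons, at 0.50 ± 0.15 in E1 and 0.86 ± 0.11 in E4 in the authors' deposited tables. Srf, the serum response factor gene, was raised in both as well, at 1.41 ± 0.13 in E1 and 0.59 ± 0.10 in E4 in the authors' deposited tables. Crem, which also encodes a repressor of CRE-driven genes, was raised at 1.27 ± 0.24 in E1 and stood at 0.42 ± 0.20 in E4 (not called) in the authors' deposited tables. The CREB coactivator gene Crtc1 was lowered in both, at -0.36 ± 0.09 in E1 and -0.19 ± 0.08 in E4 in the authors' deposited tables. Other lowered genes in E1 included Elk1 at -1.47 ± 0.13, Camk2b at -0.69 ± 0.09 and Camk2a at -0.54 ± 0.08. Mapk3 was lowered in both, at -0.55 ± 0.10 in E1 and -0.72 ± 0.09 in E4. Camkk2 was lowered at -0.91 ± 0.10 in E4 (all from the authors' deposited tables). Mef2d stood at -0.10 ± 0.11 in E1 (not called) and was raised at 0.47 ± 0.10 in E4 in the authors' deposited tables. The kinase gene Sik1, which acts against CREB coactivators, was raised at 2.84 ± 0.19 in E1 and 1.34 ± 0.15 in E4 in the authors' deposited tables.

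Of 43 genes named elsewhere as targets of NR4A factors in neurons or other tissues, 37 were tested in E1, with 13 raised, 1 lowered and 23 not called and a median of 0.34. The 37.8% called there in either direction lay near the 35.5% over all genes, but the directions differed from those over all genes. In E1, 35.1% of the targets were raised, against 20.6% over all genes. Lowered were 1 of 37 targets, against 2342 of all 15660 genes. Whether these shares differ beyond the spread was not tested. In E4, 7 of 35 were raised, 7 lowered and 21 not called, with a median of 0.02, close to the shares of 20.7% raised and 18.3% lowered over all genes. Bdnf, the neurotrophin gene, stood at 2.62 ± 0.12 in E1 and 0.43 ± 0.12 in E4, and Hspa5, a chaperone gene of the endoplasmic reticulum, at 1.42 ± 0.11 and 0.37 ± 0.12, raised each time in the authors' deposited tables. Fosl2 at 3.53 ± 0.11, the clock gene Per1 at 2.28 ± 0.13 and E2f1 at 3.55 ± 0.27 rose in E1 as well, and Fgf1 fell, at -0.58 ± 0.16 (the authors' deposited table for E1). In E4 the lowered genes included Ccnd2, a D-type cyclin gene, at -0.76 ± 0.11, Pdk4 at -0.68 ± 0.22 and Ppargc1a at -0.46 ± 0.14 in the authors' deposited table for E4. Fosl2 is also among the early genes above.

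The genes nearest in pattern were found by the distance between pairs of log2 fold changes, for E1 and E4, over 9512 genes whose mean count reached 50 in each table. Nr4a2 had Nr4a3 as its nearest gene, at a distance of 1.15 log2 units, followed by Kcnq1ot1 (1.51), Egr4 (1.52), Nr4a1 (1.77) and Fosb (1.81). Nr4a3 was nearest to Rad51d (1.09), then to Nr4a2 (1.15), Pkib (1.17), Egr4 (1.20) and Zfp839 (1.28). Nr4a1 was nearest to Egr4 (0.51), then to Homer1 (0.61), Kcnq1ot1 (0.70), Arl5b (0.75) and Trmt61a (0.82). Egr4, a zinc finger factor gene, was thus among the 5 nearest of every member, at 4.57 ± 0.17 in E1 and 0.17 ± 0.21 in E4 (not called) in the authors' deposited tables. Kcnq1ot1 is antisense to Kcnq1, and since strand use in counting is not given, reads of both may be mixed. With a minimum mean count of 10, the 5 nearest shared 1 gene with these for Nr4a1, 1 for Nr4a2 and 0 for Nr4a3.

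Markers of cell types also moved in E1, where 3224 raised (20.6%) and 2342 lowered genes were called among all 15660 tested. Of 10 granule neuron markers, 8 were lowered and 2 raised, with a summed level of about 7858 in E1 and 11723 in E0. Of 8 astrocyte markers, 5 were lowered and 0 raised (summed level 11172 in E1 and 16288 in E0), and of 10 GABAergic interneuron markers 6 were raised and 0 lowered (5050.4 in E1 and 3144 in E0). Of 8 pyramidal neuron markers of CA1 and CA3, 4 were raised and 1 lowered, and of 6 endothelial markers 3 were raised and 0 lowered (500.0 in E1 and 276 in E0). Oligodendrocyte markers had 1 raised and 2 lowered of 7, and microglial markers 0 and 1 of 6. In E4, 3 granule neuron markers were raised and 5 lowered (18168 in E4 and 22179.8 in E0), while 2 interneuron markers were raised, 1 astrocyte marker was raised and 1 lowered. Pyramidal markers then had 2 raised and 3 lowered, microglial markers 0 and 1, and oligodendrocyte and endothelial markers 0 and 0. Over all genes tested in E4, 20.7% were raised and 18.3% lowered. Whether any marker list differed from the shares over all genes was not tested. Most of the summed pyramidal level came from 1 gene, the granule protein gene Chgb, at about 3383 in E1 and 1353 in E0, and at 9662 in E4 and 2584 in E0 on the scale of the other table. The other 7 pyramidal markers summed to 1413 in E1 and 1023 in E0, and to 1982 in E4 and 1920.0 in E0. No marker had a mean count below 1. The largest log2 fold change of any marker in E1 was 1.60 and the lowest -2.41, beside 4.63 to 5.92 for the Nr4a genes. In E4 the marker values ran from -4.0004 (Tdo2) to 1.90 (Chgb). The Nr4a genes then stood inside that range, at 0.67 (Nr4a1), -0.54 (Nr4a2) and -0.99 (Nr4a3). The part of tissue makeup in the Nr4a values of E1 and E4 was not tested.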

How the data were processed

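RNA of the dentate gyrus was sequenced from 9 individual mice, 3 in each group, with groups taken from the titles. The submitters' processing notes name TopHat2, DESeq2 and build mm9 without versions, with the annotation, the counter and the strand use not given in the sources used here. Only the authors' 2 tables of comparison statistics were analysed, so no test on counts per mouse was run.

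The deposited signal is a mean over 6 libraries of normalised counts, per the file headers, with a scale of its own in each table. The log2 fold changes and SEs are the authors' own and appear shrunken toward 0. The deposited score equals the log2 fold change divided by its SE, the deposited p-value follows from it by a normal distribution, and adjusted p-values that are missing stayed missing. The tables do not name their groups. Single-read genes of the libraries that both tables share had negative fold changes, and these libraries were taken as E0, so a positive value means higher in E1 or E4.

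A gene was called at an adjusted p below 0.05. Group levels split the mean count by the deposited fold. Differences of 2 log2 fold changes were divided by the root of their summed squared SEs, with normal p-values adjusted by Benjamini-Hochberg. The code was run on simulated normal errors drawn from the deposited SEs. Such data cannot show how shrinkage or depth affects the test. An alternative removed spline trends on transcript length and GC content (GENCODE M21). The tools were Python 3.11.15, scipy 1.17.1 and statsmodels 0.14.6.

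The members and gene lists were chosen with earlier results of these data known. Named genes are the members, up to 4 per list, direction and comparison by smallest adjusted p, 14 set by name, and the 5 nearest in pattern to each member. Not every gene that this rule names is reported here. Of the symbols for E1, 27 are spreadsheet dates and were kept out of lists and joins. RefSeq places LOC105244150 over Nr4a2, whose reads cannot be told apart without strand.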

Additional observations from a re-analysis of the deposited data

Results flagged for a closer look

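All 3 Nr4a genes responded differently at the 2 times, by the test of the difference itself. The log2 fold change against E0 was lower in E4 than in E1 by a difference of -6.46 for Nr4a2, -5.85 for Nr4a3 and -3.96 for Nr4a1. No sample could be compared with others of its group, since values per mouse were not analysed here.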

How the results depend on the processing

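No paired analysis was possible because the columns carry no value per mouse, and leaving out single mice and other count models were not run for the same reason. Of 215 alternative values, 189 kept their direction and side of the threshold or about their size, 23 moved, 2 lost their call and 1 turned its sign. Of the 23, 8 were counts of calls, given here, and 15 were levels, lists of nearest genes or motif counts. The rises of all 3 Nr4a genes in E1 and the calls of Nr4a1 and Nr4a3 in E4 stayed past the threshold under all 5 alternatives. Log2 fold changes in E1 then ranged from 4.63 to 4.79 for Nr4a1, 5.82 to 5.93 for Nr4a2 and 4.72 to 4.88 for Nr4a3. Nr4a2 in E4, at -0.54, was not called at a threshold of 0.01 (adjusted p = 0.0444) or without the filter on low counts (0.0561). The difference of Nr4a1 and Nr4a3 in E1, not called, turned to 0.067 with the trend on length and GC content removed (adjusted p = 0.760). Receptors lowered in E1 then numbered 5, and 1 at a threshold of 0.01, against 3. Targets lowered in E1 numbered 3 with the trend removed and 2 with a minimum count of 10 in each table, against 1. In E4 the threshold of 0.01 left 7 receptors lowered and 3 targets raised, and the minimum of 10 left 3 receptors raised, against 11, 7 and 5. With the shared E0 mice taken as 50% of each variance, 3432 genes were higher in E4 than in E1, against 2256. Genes of the upstream route in E1, not among the 23, numbered 12 raised and 13 lowered with the trend removed, against 16 and 10. With the E0 level taken from the other table, the fold of Nr4a2 was 67.1 in E1 and its log2 fold change -0.94 in E4. The cause was not tested. The low depth of the E1 libraries limits what can be said of genes with few reads.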

Other observations

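The neighbours of the members along the chromosome were looked up in RefSeq order, at whatever distance, after the values had been seen. Next to Nr4a1 lies Grasp, a scaffold protein gene of synapses, which stood at 2.995 ± 0.14 in E1 and 1.98 ± 0.11 in E4 in the authors' deposited tables, raised both times. On its other side, Atg101, an autophagy gene, was raised at 0.69 ± 0.19 in E1 and 0.39 ± 0.14 in E4 in the authors' deposited tables. Next to Nr4a3, Sec61b stood at -0.60 ± 0.27 in E1 and -0.01 ± 0.17 in E4, called in neither, in the authors' deposited tables. On its other side, Stx17, a syntaxin gene, stood at 0.04 ± 0.20 in E1 (not called) and was lowered at -0.65 ± 0.16 in E4 in the authors' deposited tables. Before Nr4a2, Kcnj3, a potassium channel gene, comes after Mir195b, which had no reads, and stood at 0.19 ± 0.15 in E1 and 0.09 ± 0.14 in E4, called in neither, in the authors' deposited tables. On the other side of Nr4a2, BB557941 lies at 3.5 kb, with a mean count of only 3.08 in the comparison for E1 (not called). The distances were 21.1 kb for Grasp, 9.5 kb for Atg101, 561.8 kb for Sec61b, 38.5 kb for Stx17 and 1508.7 kb for Kcnj3.

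The E0 levels that the tables imply can be set against each other, since both use the same mice. Over 9818 genes the ratio of the E0 level in the table for E4 to that in the table for E1 had a median of 1.89 and quartiles of 1.88 and 1.90. The members lay lower, at 1.78 for Nr4a1, 1.70 for Nr4a2 and 1.77 for Nr4a3. Ratios of other genes with large rises in E1 were not set beside these, so the low ratio is not shown to be particular to the members.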
